A study of Mus musculus with 12 samples.

Results

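The measurements described here are the nuclear levels of all 350 miRNAs of the deposited table after 2 h of hypoxia against 0 h, taken from 4 of the 12 small RNA libraries. The libraries were taken by fraction and time and every miRNA of that table was kept, with no further cutoff on a measured value. The study had already dropped miRNAs of low abundance, under 10 reads, which left these 350, so rarer ones could not appear here. The cells were C166, an endothelial line derived from mouse yolk sac. The 2 h group is nuclear RNA of cells kept at 1% oxygen for 2 h (n = 2). The 0 h group is nuclear RNA of cells kept in normoxia under normal culture conditions (n = 2). Nuclear RNA after 24 h at 1% oxygen (n = 2) was used for the spread and for values side by side, and the cytoplasmic libraries of 2 h and 0 h (n = 2 each) for the difference between fractions. Cells were lysed in a hypotonic buffer and separated into nuclei and cytoplasm, and all groups share that 1 cell line and 1 procedure. The study calls its duplicates biological replicates, and the labels do not say whether they came from separate cultures on separate days, so the errors below measure the spread between these libraries.

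A miRNA is cut from a hairpin RNA, usually by Drosha in the nucleus and then by Dicer in the cytoplasm, and 1 strand is loaded into an Argonaute protein. The mature miRNA finds its targets mainly through its seed, the bases from position 2 to 8, and represses them mostly in the cytoplasm, although Argonaute proteins and mature miRNAs are also found in nuclei. Hypoxia stabilizes the HIF transcription factors, and miR-210-3p is the miRNA best known to be induced by them in endothelial and many other cells.

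Of the 350 miRNAs, 25 differed between 2 h and 0 h at the looser threshold defined below. The mature sequences of several of them are printed here beside measured miRNAs of the same seed, cluster or hairpin, since the values below are read within these groups, and those of a pair from other small RNA genes follow. Of the 25, 22 were matched to a mature miRNA in RefSeq (build GRCm38.p6). Sequences run 5′ to 3′ with the seed in capitals. The 3 miRNAs with the lin-4 type seed were all lower at 2 h.
miR-125a-5p: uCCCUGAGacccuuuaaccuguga
miR-125b-5p: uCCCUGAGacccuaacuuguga
miR-351-5p: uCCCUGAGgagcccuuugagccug
The epithelial pair with a common seed was also lower at 2 h.
miR-200b-3p: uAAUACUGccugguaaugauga
miR-200c-3p: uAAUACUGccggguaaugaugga
In the group below, the first was lower and the last was higher at 2 h, while the other 2 did not pass the threshold.
miR-92a-3p: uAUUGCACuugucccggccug
miR-92b-3p: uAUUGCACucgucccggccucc
miR-25-3p: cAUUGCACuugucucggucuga
miR-32-5p: uAUUGCACauuacuaaguugca
The next group holds the miRNA with the largest increase, miR-301a-3p, and 2 relatives that did not pass the threshold.
miR-301a-3p: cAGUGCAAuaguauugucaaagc
miR-130a-3p: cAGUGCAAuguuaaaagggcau
miR-130b-3p: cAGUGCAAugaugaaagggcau
A pair cut from 1 genomic cluster have seeds that differ in their last base, and miR-182-5p was lower while miR-96-5p did not pass the threshold.
miR-182-5p: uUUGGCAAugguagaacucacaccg
miR-96-5p: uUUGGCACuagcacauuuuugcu
Both arms of the miR-382 hairpin were lower, and their seeds differ.
miR-382-5p: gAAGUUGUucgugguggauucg
miR-382-3p: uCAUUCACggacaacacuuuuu
The last pair lie within small nucleolar or Cajal body RNA genes, and both were lower.
miR-1291: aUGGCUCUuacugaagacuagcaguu
miR-1843b-3p: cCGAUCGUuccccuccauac

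The deposited values are normalized counts, that is reads per miRNA divided by 1 size factor per library, and differences are given on log2(normalized count + 1) with 2 h minus 0 h, so that a negative value means a lower level at 2 h. The 4 libraries held 4049049 and 3481688 reads at 2 h against 3791115 and 3396602 at 0 h, and every miRNA had at least 10 reads in each. The growth-promoting miR-21a-5p made up 48.3% and 49.9% of these miRNA reads at 2 h against 45.1% and 37.4% at 0 h. The Wilson 95% intervals reach at most 0.053 percentage points to either side and cover counting error only. The second 0 h library stands apart by this share. The level of miR-21a-5p as a normalized count did not pass the test (log2 difference 0.36 ± 0.12 SE, adjusted p = 0.0884). Log2 differences between replicates had an SD over the miRNAs of 0.40 at 2 h and 0.36 at 0 h. The endothelial marker miR-126a-3p was present, with 674 and 457 normalized counts at 2 h against 397 and 332 at 0 h (adjusted p = 0.111).

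At the study's threshold, an adjusted p under 0.01 and at least a 2-fold difference, 0 of 350 miRNAs were called (0.0%) with limma, the linear model used here on the 6 nuclear libraries, and limma-voom on recovered reads also called 0. At an unadjusted p under 0.05 there were 102 miRNAs, 41 higher and 61 lower. The smallest adjusted p was 0.0284, shared by 4 miRNAs, namely miR-301a-3p, miR-200b-3p, miR-1291 and miR-382-3p. At the looser threshold, an adjusted p under 0.05 at any fold, 25 miRNAs were called (7.14% of those tested), of which 7 were higher (2.0%) and 18 were lower (5.14%) at 2 h. Called below refers to this looser threshold.

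The size of the 25 differences lay between 0.60 and 1.39 on the log2 scale, while the median over all 350 miRNAs was -0.08 with an SD of 0.45 and quartiles of -0.35 and 0.24. Differences of 2-fold or more were measured for 12 miRNAs, 4 of them higher and 8 lower, and 9 of the 12 were called. In all 25 the libraries of the 2 times did not overlap. Over the whole table the 2 h libraries both lay above the 0 h libraries in 94 miRNAs (26.9%) and both lay below them in 142 (40.6%), so absence of overlap by itself was common. The called miRNAs that were lower included 9 of the 109 that averaged 1000 normalized counts or more, and the called miRNAs that were higher included none of these.

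**Figure D1:**
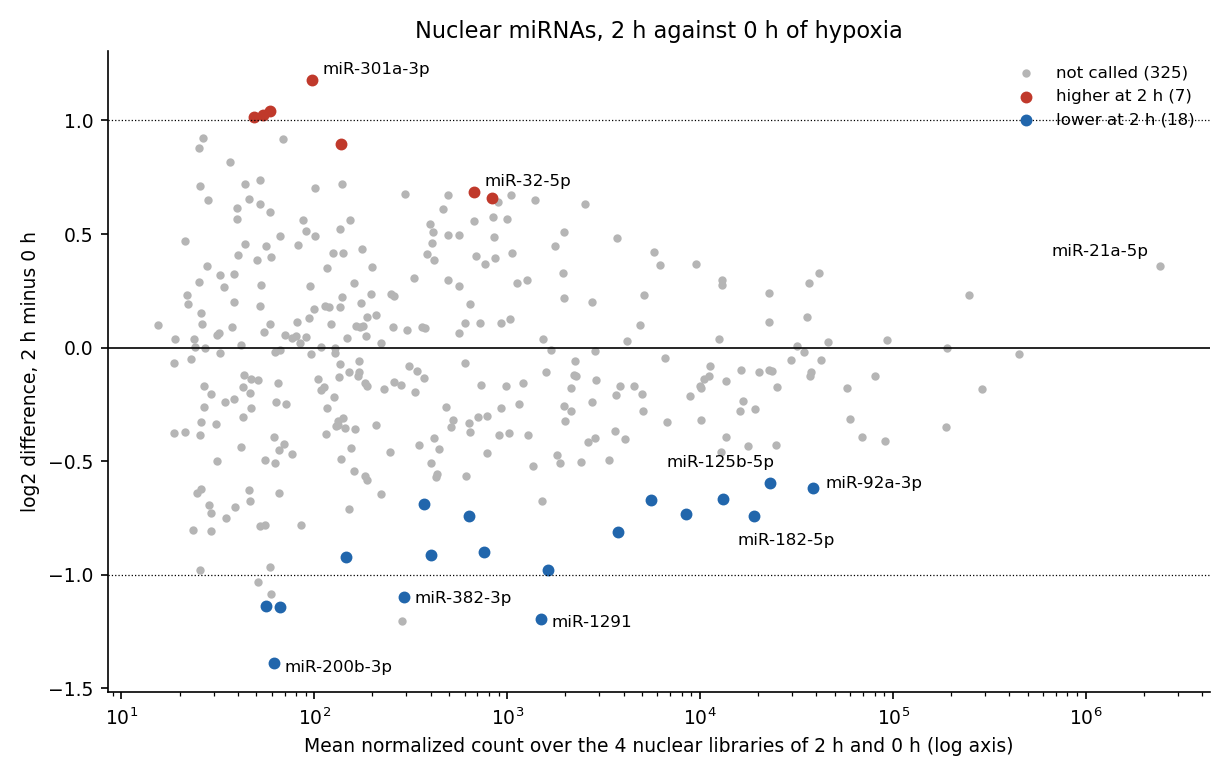
Each point is 1 of 350 miRNAs, with its mean normalized count over the 4 libraries on a log axis and its log2 difference, 2 h minus 0 h, on the vertical axis. Dotted lines mark a 2-fold difference. The 18 called miRNAs that were lower span rare to abundant miRNAs, while the 7 that were higher all have a mean under 1000.

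The number of calls changed with the libraries in the fit. Leaving out 2 h replicate 1, 0 h replicate 2 or either 24 h library left 0 calls, whereas leaving out 2 h replicate 2 gave 54 and leaving out 0 h replicate 1 gave 53. The median size of the 25 differences was 0.90 on the log2 scale with all libraries, 0.71 without 2 h replicate 1 and 0.66 without 0 h replicate 2, with none of them under 0.41. Without a 24 h library every difference between 2 h and 0 h was the same as before, and the estimate of the spread alone changed. Of the 18 called miRNAs that were lower, 13 had their highest value in 0 h replicate 2 and 13 had their lowest value in 2 h replicate 1, and all 7 that were higher had their lowest value in 0 h replicate 2. Among all 350 miRNAs, 0 h replicate 2 held the highest of the 4 values in 146 miRNAs and the lowest in 107. The direction of each of the 25 stayed the same in every alternative in which it was measured. Because the 2 times did not overlap in any of the 25, omitting a library could not turn a sign, and only the other scalings could. With only the 0 h and 2 h libraries in the fit, 0 miRNAs were called and the smallest adjusted p was 0.154.

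The scale of the libraries also moved the balance of calls. Scaled to the total count, 3 miRNAs were higher and 18 lower, so 14.3% of calls were higher in place of 28%. With miR-21a-5p left out of that total, 18 were higher and 15 lower (54.5% higher). With TMM factors 7 were higher and 9 lower (43.8% higher), and with size factors from the nuclear libraries alone 3 were higher and 3 lower. miR-186-5p, the study's reference for RT-qPCR, had 1453 and 1326 normalized counts at 2 h against 1221 and 1046 at 0 h. Scaled to it, the median of all miRNAs lay at -0.38, a shift of -0.30, and 0 miRNAs were called, and the total count shifted that median by -0.10.

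**Figure D2:**
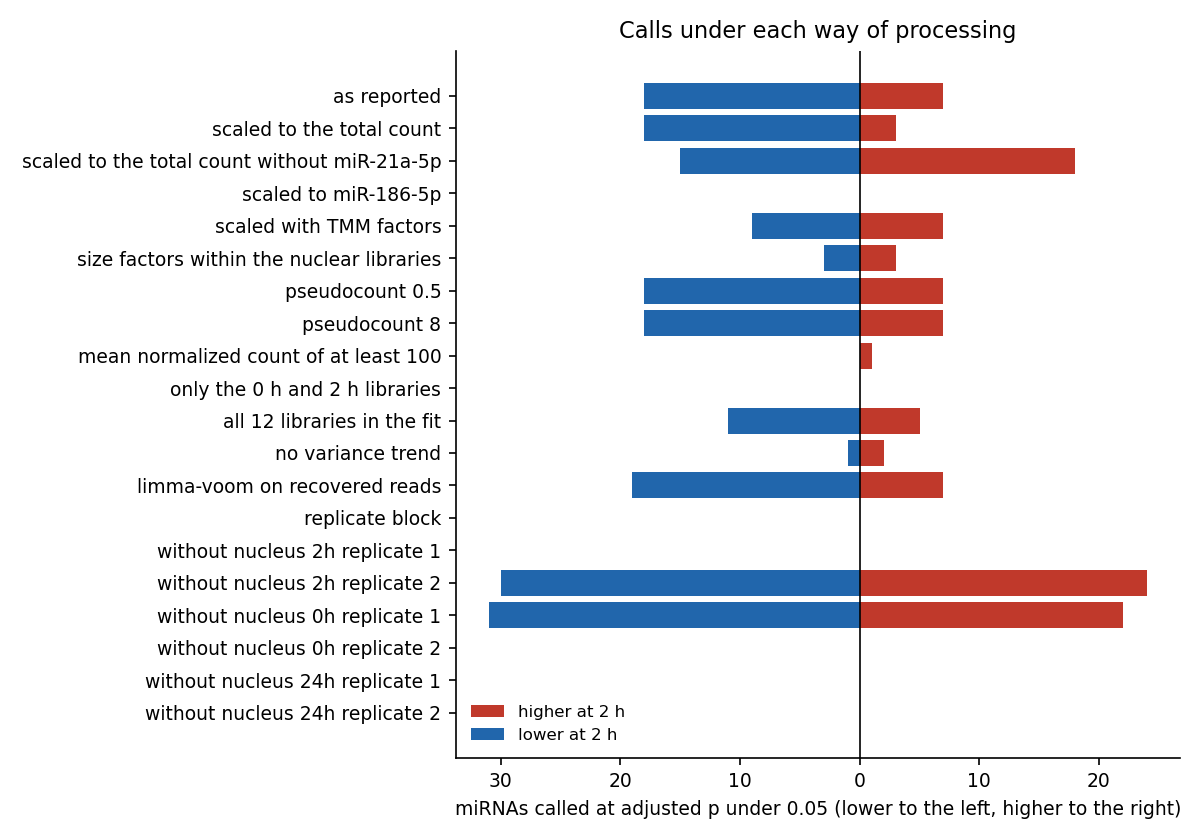
Bars give the number of miRNAs called at an adjusted p under 0.05 in the nuclear comparison of 2 h and 0 h, higher at 2 h to the right and lower to the left, as reported and under each other way of processing. The bars reach 24 higher and 30 lower without 2 h replicate 2, and vanish in 7 settings.

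The miRNA with the largest rise was miR-301a-3p, an oncogenic miRNA related to miR-130 and encoded in Ska2 at chr11:87113054-87113076 (plus strand) of GRCm38.p6. It had 147 and 123 normalized counts at 2 h against 62.0 and 55.9 at 0 h, or 107 and 79 reads at 2 h against 45 and 38 at 0 h. Both 2 h libraries lay well above both 0 h libraries, a level 2.26-fold higher at 2 h (a log2 difference of 1.18 ± 0.23 (SE), adjusted p = 0.0284, 95% interval 0.69 to 1.66). Its relatives with the same seed did not pass the test, with a log2 difference of 0.09 ± 0.21 (SE) for miR-130a-3p and 0.00 ± 0.26 for miR-130b-3p. The opposite arm, miR-301a-5p, had 196 and 238 normalized counts at 2 h against 252 and 152 at 0 h, and its libraries overlapped.

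Among the other called miRNAs that were higher, 3 are the less abundant arm of their hairpin. miR-132-5p, whose partner miR-132-3p is induced by CREB and promotes angiogenesis in endothelial cells, had 93.4 and 65.5 normalized counts at 2 h against 45.5 and 30.9 at 0 h (a log2 difference of 1.04 ± 0.29 (SE), adjusted p = 0.046). The partner itself did not pass the test, at 0.18 ± 0.23 (SE). miR-24-1-5p had 64.6 and 65.5 normalized counts at 2 h against 35.8 and 27.9 at 0 h (a log2 difference of 1.02 ± 0.29 (SE), adjusted p = 0.046). miR-24-2-5p, from the other miR-24 locus and with the same seed, had 5246 and 3508 normalized counts at 2 h against 3201 and 2937 at 0 h and did not pass (adjusted p = 0.143). miR-214-5p, from the Dnm3os transcript, had 1119 and 916 normalized counts at 2 h against 696 and 589.8 at 0 h (a log2 difference of 0.66 ± 0.19 (SE), adjusted p = 0.046), while its far more abundant partner miR-214-3p lay at -0.05 ± 0.16 (SE).

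The remaining 3 that rose were of low to middling abundance. miR-193b-3p, a miRNA with a tumour-suppressor role in several cancers, had 74.2 and 71.7 normalized counts at 2 h against 38.6 and 32.4 at 0 h (a log2 difference of 1.02 ± 0.25 (SE), adjusted p = 0.0387). miR-32-5p, from an intron of Tmem245, had 927 and 740.2 normalized counts at 2 h against 559.6 and 475 at 0 h (a log2 difference of 0.68 ± 0.19 (SE), adjusted p = 0.046). In both, the higher 0 h library stayed below the lower 2 h library. miR-467b-5p belongs to the repeated miRNA cluster in an intron of Sfmbt2 and had 191 and 165 normalized counts at 2 h against 101 and 89.7 at 0 h (a log2 difference of 0.90 ± 0.21 (SE), adjusted p = 0.0387). Its sequence is close to those of other miR-467 members, so reads may be shared among them.

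miRNAs typical of epithelia had the lowest median of the lists, -1.14. miR-200b-3p and miR-200c-3p repress the ZEB transcription factors and so maintain the epithelial state, and miR-203-3p is a miRNA of keratinocytes. These were the 3 measured of 7 listed, and 3 of 3 were called lower, where 5.14% of all 350 miRNAs were. The other 4 were not analysed here. miR-200b-3p had 34.3 and 32.7 normalized counts at 2 h against 93.7 and 85.3 at 0 h, or 25 and 21 reads at 2 h against 68 and 58 at 0 h, and was 2.62-fold lower at 2 h (a log2 difference of -1.39 ± 0.28 (SE), adjusted p = 0.0284). miR-200c-3p had 39.8 and 29.6 normalized counts at 2 h against 91.0 and 64.7 at 0 h (a log2 difference of -1.14 ± 0.33 (SE), adjusted p = 0.0477). miR-203-3p had 46.7 and 35.8 normalized counts at 2 h against 81.3 and 103 at 0 h (a log2 difference of -1.14 ± 0.29 (SE), adjusted p = 0.0428). In each of the 3 both 2 h libraries lay under both 0 h libraries, as they did in 40.6% of all miRNAs. The omission of a library therefore could not turn the sign of these 3.

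All 3 were rare, with summed normalized counts of 121 and 98.2 at 2 h against 266 and 253 at 0 h. With miRNAs under a mean normalized count of 100 removed they could not be tested. Of the other 18 alternatives, miR-200b-3p was called in 11, miR-203-3p in 8 and miR-200c-3p in 5, with a negative difference in each of the 18. None of the 3 was called without 2 h replicate 1, where their median was -1.34, without 0 h replicate 2, where it was -1.38, or without either 24 h library, where it stayed at -1.14. miRNAs typical of other tissues were measured for 7 of 14 listed, with a summed count of 6165 and 5239 at 2 h against 5133 and 5256 at 0 h. The summed ranges of that list overlap. Of its 7 measured members 1 was called, where 7.14% of all miRNAs were, and for a list of 7 this is near that share. It was the erythroid miR-486-5p, with 251 and 318 normalized counts at 2 h against 442 and 469 at 0 h (a log2 difference of -0.69 ± 0.19 (SE), adjusted p = 0.046). The liver miRNA miR-122-5p had 31.6 and 39.0 normalized counts at 2 h against 53.8 and 42.7 at 0 h and was not called. Whether RNA from other cells entered any library was not tested.

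The miR-125 seed group was called lower in all of its 3 measured members, where 5.14% of all miRNAs were. It is described here because its members were called, so their number is not read as a result about the seed. miR-125b-5p and miR-125a-5p, relatives of the worm miRNA lin-4, act on cell growth and differentiation, and miR-351-5p is a rodent miRNA of the X chromosome with the same seed. miR-125b-5p had 17548 and 19076 normalized counts at 2 h against 24619 and 31136 at 0 h, a level among the higher ones of the table (a log2 difference of -0.60 ± 0.16 (SE), adjusted p = 0.0435). miR-125a-5p had 9161 and 11188 normalized counts at 2 h against 14656 and 17589 at 0 h (a log2 difference of -0.67 ± 0.16 (SE), adjusted p = 0.0387). miR-351-5p had 5548 and 7042 normalized counts at 2 h against 8905 and 12125 at 0 h (a log2 difference of -0.73 ± 0.18 (SE), adjusted p = 0.0387). In all 3 the highest value was in 0 h replicate 2. The name of miR-125b-5p in the table stands for 2 genomic loci with the same mature sequence.

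In the group with the AUUGCAC seed the members went different ways. miR-92a-3p, the most abundant miRNA among the 25 and an inhibitor of vessel growth in endothelial cells, had 26489 and 34266 normalized counts at 2 h against 40402 and 52754 at 0 h (a log2 difference of -0.62 ± 0.17 (SE), adjusted p = 0.046). miR-32-5p rose, as given above. miR-92b-3p had 151 and 193 normalized counts at 2 h against 230.2 and 310.4 at 0 h and miR-25-3p had 10321 and 9673 normalized counts at 2 h against 11252 and 10738 at 0 h, and neither passed the test (adjusted p = 0.108 and 0.566). The difference between the members was not tested.

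The X-linked cluster of miR-322, miR-503, miR-351, miR-542 and miR-450 had 3 of its 10 measured members lower and 0 higher, where 5.14% of all miRNAs were lower, with a median of -0.33 against -0.08 for all miRNAs. This median was -0.19 without 0 h replicate 2 and -0.51 without 0 h replicate 1. Besides miR-351-5p these were miR-542-3p and miR-450b-3p. miR-542-3p, which targets survivin in human cells, had 4641 and 3865 normalized counts at 2 h against 5628 and 8083 at 0 h (a log2 difference of -0.67 ± 0.19 (SE), adjusted p = 0.046). miR-450b-3p had 102 and 95.1 normalized counts at 2 h against 143 and 244 at 0 h (a log2 difference of -0.92 ± 0.26 (SE), adjusted p = 0.046). The opposite arm, miR-450b-5p, had 526 and 444 normalized counts at 2 h against 358 and 321 at 0 h, higher in both 2 h libraries without passing the test (0.51 ± 0.19 SE, adjusted p = 0.112). Of the 10 members, whose hairpins lie together on the X chromosome, 3 had positive differences and 7 negative ones.

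A similar split was seen in the cluster of miR-182, miR-183 and miR-96, miRNAs of sensory organs that are made from 1 transcript. miR-182-5p had 13178 and 15288 normalized counts at 2 h against 20417 and 27484 at 0 h (a log2 difference of -0.74 ± 0.17 (SE), adjusted p = 0.0387). miR-183-5p had 20450.3 and 21058 normalized counts at 2 h against 23403 and 33392 at 0 h and did not pass (adjusted p = 0.136). miR-96-5p had 2065 and 1365 normalized counts at 2 h against 1179 and 972 at 0 h, with both 2 h libraries above both 0 h libraries (0.65 ± 0.21 SE, adjusted p = 0.0842). miR-183-3p had 35.7 and 40.5 normalized counts at 2 h against 66.2 and 66.2 at 0 h (adjusted p = 0.111).

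In the imprinted Dlk1-Dio3 cluster, which is transcribed from the maternal chromosome, 38 of 54 listed miRNAs were measured. Of these 2 were lower and 0 higher, near the shares over all miRNAs, 5.14% lower and 2.0% higher. The median was -0.17, and it was -0.04 without 0 h replicate 2 and -0.29 without 0 h replicate 1. Both called members came from the miR-382 hairpin in the Mirg transcript. miR-382-3p, at chr12:109733819-109733840 (plus strand), had 170.3 and 195 normalized counts at 2 h against 310.1 and 493 at 0 h (a log2 difference of -1.10 ± 0.24 (SE), adjusted p = 0.0284). miR-382-5p, at chr12:109733781-109733802 (plus strand), had 239 and 313 normalized counts at 2 h against 412 and 647 at 0 h (a log2 difference of -0.91 ± 0.23 (SE), adjusted p = 0.0428). For both arms the second 0 h library was the highest of the 4. The other members reached up to 0.63. Of all 38, 7 lay above and 16 below without overlap of the 2 times, where 26.9% and 40.6% of all miRNAs did so.

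Of 12 measured miRNAs found to overlap a snoRNA or Cajal body RNA gene, 2 were lower and 0 higher, where 5.14% of all miRNAs were lower. Their median was -0.47 against -0.08 for all miRNAs, and 9 differences were negative, as were 197 of 350 over the table. The 3 positive ones were those of miR-3068-5p at 0.45 ± 0.24 (SE), miR-1843a-5p at 0.23 ± 0.20 and miR-5121 at 0.11 ± 0.19, none of them called. Several of the 12 are the 2 arms of 1 hairpin. For miR-677, miR-1839 and miR-3068 the overlapped gene bears the miRNA's own name. miR-1291 lies in the small nucleolar RNA Snora34, inside Kansl2, at chr15:98519828-98519853 (minus strand), and had 639 and 1251 normalized counts at 2 h against 2076 and 2017 at 0 h (a log2 difference of -1.19 ± 0.26 (SE), adjusted p = 0.0284, 95% interval -1.74 to -0.65). Its replicates at 0 h were close to each other while those at 2 h differed widely. miR-1843b-3p overlaps the Cajal body RNA Scarna3a, inside Cop1, at chr1:159340400-159340419 (plus strand), and had 385 and 695 normalized counts at 2 h against 1028 and 908 at 0 h (a log2 difference of -0.90 ± 0.25 (SE), adjusted p = 0.046). miR-3535, named by the study for its nuclear level, had 3379 and 3620.1 normalized counts at 2 h against 4559.9 and 4673 at 0 h, without overlap of the 2 times, and was not called (unadjusted p = 0.0294, adjusted p = 0.143). Reads of a host snoRNA and of a miRNA with the same sequence cannot be told apart in these counts.

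The last 3 of the 18 come from no group described so far. miR-28a-3p had 2499 and 2906 normalized counts at 2 h against 3889 and 5736 at 0 h (a log2 difference of -0.81 ± 0.20 (SE), adjusted p = 0.0387), and its partner miR-28a-5p lay at -0.12 ± 0.18 (SE). miR-30c-2-3p, the lesser arm of a miR-30c hairpin, had 389 and 567 normalized counts at 2 h against 743 and 831 at 0 h (a log2 difference of -0.74 ± 0.21 (SE), adjusted p = 0.046). miR-5099 had 768 and 1477 normalized counts at 2 h against 2561 and 1717 at 0 h (a log2 difference of -0.98 ± 0.27 (SE), adjusted p = 0.046). In the last 2 the lowest of the 4 values was in 2 h replicate 1.

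**Figure D3:**
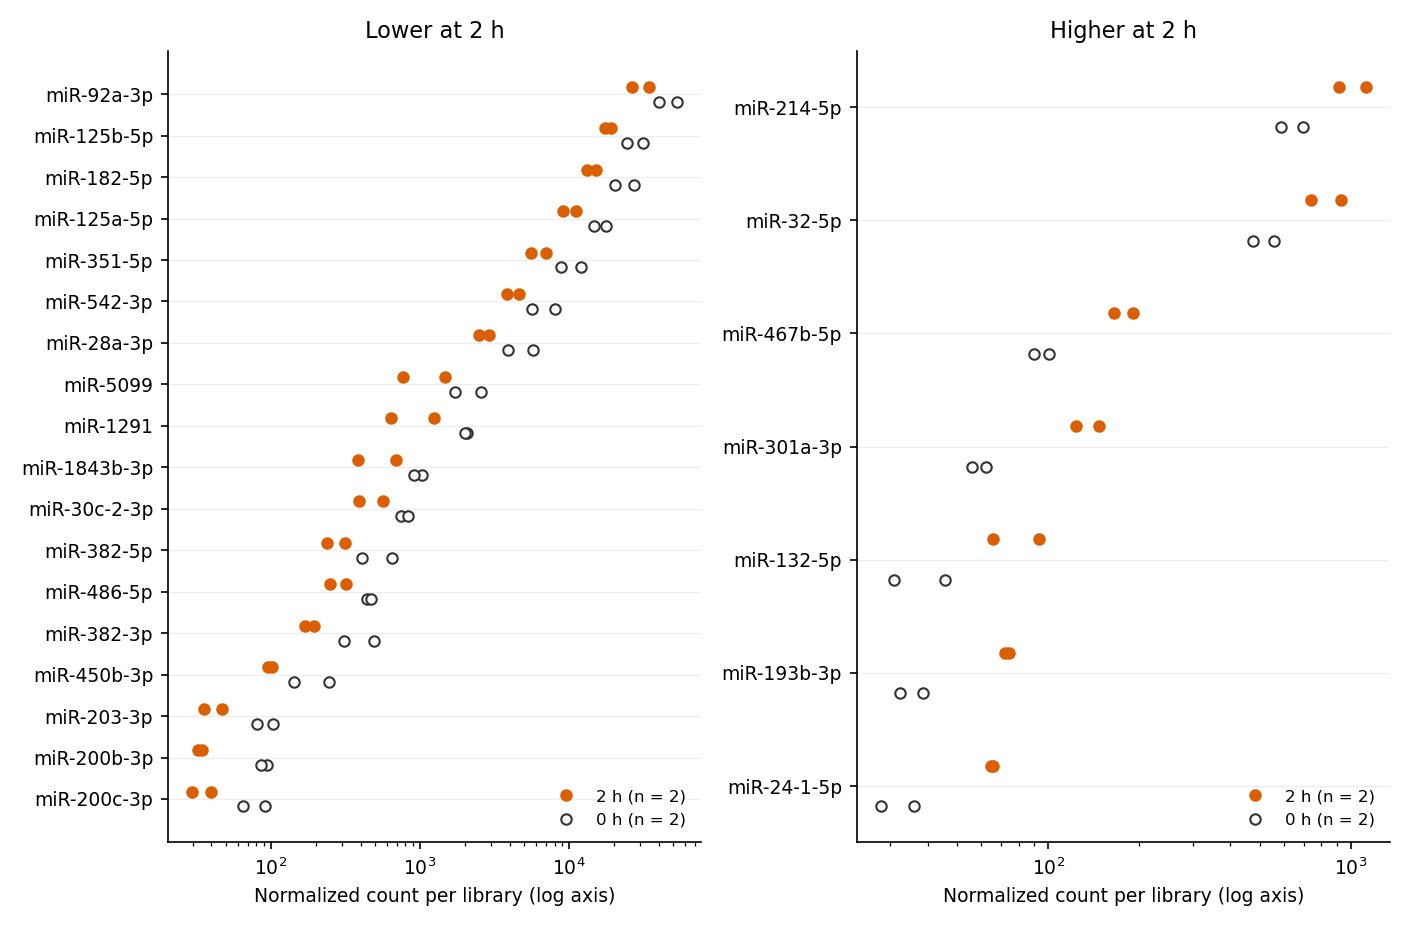
Normalized counts per library on a log axis for the 18 called miRNAs that were lower (left) and the 7 that were higher (right), with filled points for the 2 libraries of 2 h and open points for the 2 libraries of 0 h. In no row do filled and open points overlap, and the gap between replicates of miR-1291, miR-5099 and miR-1843b-3p at 2 h is wide.

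Both arms were measured for 86 hairpins, and in 43 of these the differences of the arms had the same sign. Across the 86 hairpins Pearson's r of the 2 arms was 0.11, a description over hairpins that share the same 4 libraries. Both arms were called for 1 hairpin, miR-382, and 1 arm for 8. By arm, the median difference was -0.0015 over 170 miRNAs of the 5p arm, with 5 higher and 6 lower, and -0.13 over 161 of the 3p arm, with 2 higher and 10 lower. Over all miRNAs 2.0% were called higher and 5.14% lower. Over the miRNAs with a sequence, all but 49 of the 350, Spearman's rho of the difference was -0.08 with GC content and 0.05 with length, both near 0 and given as a description.

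Of 19 listed miRNAs linked to hypoxia, 18 were measured and 0 were called, where 7.14% of all miRNAs were called. For a list of 18 this is near the share of the whole table. The median was -0.11, or -0.0073 without 0 h replicate 2, against -0.08 for all miRNAs with every library. miR-210-3p, which represses iron-sulfur cluster assembly and mitochondrial respiration in hypoxic cells, had 2448 and 1906 normalized counts at 2 h against 1684 and 1758 at 0 h (a log2 difference of 0.33 ± 0.17 (SE), adjusted p = 0.203, 95% interval -0.04 to 0.69). Its first 2 h library was the highest of the 4 and its 2 h libraries both lay above the 0 h libraries. miR-199a-5p, which targets HIF-1α, had 11459 and 9983 normalized counts at 2 h against 9032 and 7602 at 0 h (adjusted p = 0.149). miR-103-3p, from the Pank introns, had the most negative difference of the list, with 11144 and 10229 normalized counts at 2 h against 11759 and 18298 at 0 h (adjusted p = 0.143).

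Of the endothelial and vascular list, 12 of 13 were measured and 1 was called, miR-92a-3p, near the 7.14% called over all miRNAs. The median was -0.09 at the deposited scaling. Scaled to the total count this median was -0.20, and with miR-21a-5p left out of that total it was 0.01. miR-218-5p, which lies in the Slit genes and targets Robo1, had 3765 and 2415 normalized counts at 2 h against 2068 and 1827 at 0 h (adjusted p = 0.0842), and miR-10b-5p had 12264 and 11229.7 normalized counts at 2 h against 13881 and 17152 at 0 h (adjusted p = 0.134). The miR-17-92 and related clusters, proliferative miRNAs, had 1 of 15 measured members called, again miR-92a-3p and again near that share. Their median was -0.14, which was -0.07 without 0 h replicate 2 and -0.31 without 0 h replicate 1. miR-25-5p had 56.3 and 68.6 normalized counts at 2 h against 116 and 100.02 at 0 h (adjusted p = 0.105).

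The let-7 family, which holds back growth and developmental timing genes, had a negative median for its 5p arms and a positive one for its 3p arms. Of 10 measured 5p arms 0 were called, where 7.14% of all miRNAs were. Their median was -0.14, which was -0.05 without 0 h replicate 2, and their values ran from -0.41 to 0.24. Of 10 measured 3p arms 0 were called, and for a list of 10 this is near the share over all miRNAs. Their median was 0.36, which stayed positive under every scaling, down to 0.07 when scaled to miR-186-5p. let-7f-1-3p had 157 and 96.6 normalized counts at 2 h against 67.5 and 83.8 at 0 h, both 2 h libraries above both 0 h libraries (adjusted p = 0.115). let-7b-3p went the other way, with 97.5 and 132 normalized counts at 2 h against 153 and 168 at 0 h (adjusted p = 0.162). The difference between the arms was not tested.

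The Sfmbt2 intron cluster, which expanded in rodents, had 15 of 17 measured members with a positive difference, where 153 of all 350 were positive. Its 1 called member was miR-467b-5p, near the share of 7.14% over all miRNAs. Some of its names stand for several merged miRNAs and reads may be shared among members, so the 17 are not separate observations. Its median of 0.29 was 0.0019 when the libraries were scaled to miR-186-5p, 0.14 without 0 h replicate 2 and 0.42 without 0 h replicate 1. miR-467a-5p had 176 and 168 normalized counts at 2 h against 127 and 85.3 at 0 h (adjusted p = 0.0884), and miR-669m-5p had 24.7 and 18.7 normalized counts at 2 h against 35.8 and 36.8 at 0 h (adjusted p = 0.16). The summed count of the cluster was 2788 and 3020.1 at 2 h against 2739 and 1950.4 at 0 h. The second 0 h library had the lowest sum.

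The other lists held 0 or 1 called miRNA each, where 7.14% of all miRNAs were called. For lists of this size that is near the share of the whole table. In the miR-23, miR-27 and miR-24 clusters 1 of 9 was higher, miR-24-1-5p, and miR-27a-5p had 196 and 161 normalized counts at 2 h against 168 and 165 at 0 h (adjusted p = 0.817). The miR-30 family had 0 of 5 called among its 5p arms and 1 of 5 among its 3p arms, and the abundant miR-30a-5p had 173133 and 158428 normalized counts at 2 h against 193892 and 229206 at 0 h (adjusted p = 0.115). None of 10 miRNAs of the miR-15/16 family, of 7 of the miR-181 family or of 10 mirtrons was called.

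In the miR-29 and miR-199 list, 0 of 8 were called, where 7.14% of all miRNAs were. miR-29b-3p carries a motif in its 3′ end that was reported earlier, in human cells, to direct it to the nucleus. The study proposes that this motif is not a true nuclear signal here, as relatives without it were also enriched in nuclei. miR-29b-3p had 453 and 477 normalized counts at 2 h against 460.4 and 275 at 0 h (adjusted p = 0.266), and miR-199b-5p had 1579.7 and 1019 normalized counts at 2 h against 890.5 and 710.4 at 0 h (adjusted p = 0.0842). miR-29a-3p, the most abundant of its family, had 19622 and 19363 normalized counts at 2 h against 21054 and 21001 at 0 h (adjusted p = 0.634). Of 6 miRNAs with a mostly cytoplasmic level in this series 0 were called, near the share over all miRNAs for a list of 6. Their summed counts were 576 and 595 at 2 h against 635 and 546 at 0 h. Since that list was chosen on these libraries, it gives only a coarse view of how clean the nuclei were, and its ranges overlap.

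The most abundant nuclear miRNAs did not pass the test. After miR-21a-5p, with 2684444 and 2705205 normalized counts at 2 h against 2359320.0 and 1869550.3 at 0 h, came miR-143-3p, a miRNA of smooth muscle and stroma, with 442436 and 442589.7 normalized counts at 2 h against 443205 and 458151 at 0 h. let-7i-5p had 246231 and 291705 normalized counts at 2 h against 291751 and 317765 at 0 h, let-7f-5p had 319347 and 215977 normalized counts at 2 h against 211150.0 and 236890.4 at 0 h and miR-30d-5p had 216211 and 165394 normalized counts at 2 h against 186449.8 and 192031 at 0 h. None of these 6 abundant miRNAs, miR-30a-5p included, was called, where 7.14% of all miRNAs were.

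Among the miRNAs with large differences that were not called, miR-1949 had 75.5 and 332 normalized counts at 2 h against 390.1 and 344 at 0 h, where 1 library lies far under the other 3 (adjusted p = 0.112). miR-193a-5p had 30.2 and 40.5 normalized counts at 2 h against 46.9 and 121 at 0 h and miR-501-5p had 24.7 and 43.6 normalized counts at 2 h against 66.2 and 70.6 at 0 h. Neither passed the test (adjusted p = 0.11 and 0.0842). On the other side, miR-331-3p had 83.8 and 96.6 normalized counts at 2 h against 57.9 and 38.2 at 0 h (adjusted p = 0.0552) and miR-700-5p had 30.2 and 35.8 normalized counts at 2 h against 20.7 and 14.7 at 0 h (adjusted p = 0.112). Other miRNAs with large differences and no overlap were miR-425-3p at 0.82 ± 0.34 (SE), miR-1947-5p at 0.74 ± 0.27, miR-704 at 0.72 ± 0.34 and miR-412-5p at -0.98 ± 0.37, none of them called. The spread of rare miRNAs is wide, with a median standard error of 0.31 under a mean of 100 normalized counts and 0.17 from 1000 upwards.

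For some of the named miRNAs the 24 h libraries can be set beside those of 0 h and 2 h although the comparisons share libraries. miR-210-3p had 1684 and 1758 normalized counts at 0 h, 2448 and 1906 at 2 h, and 12744 and 11948 at 24 h. miR-301a-3p had 62.0 and 55.9 at 0 h, 147 and 123 at 2 h, and 128 and 118 at 24 h. For miR-301a-3p the 2 h and 24 h values are close to each other, while miR-210-3p stood far higher at 24 h than at 2 h.

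miR-542-3p had 5628 and 8083 at 0 h, 4641 and 3865 at 2 h, and 1835 and 1764 at 24 h. miR-486-5p had 442 and 469 at 0 h, 251 and 318 at 2 h, and 479 and 470.2 at 24 h. miR-351-5p had 8905 and 12125 at 0 h, 5548 and 7042 at 2 h, and 10099.8 and 10793 at 24 h. Of these 3, miR-542-3p was lowest at 24 h, and the 24 h levels of miR-486-5p and miR-351-5p were within or near the range of 0 h.

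The nuclear difference was set against the cytoplasmic one as an interaction over the 12 libraries, which asks whether the 2 fractions responded alike at 2 h. In the cytoplasm 0 of 350 miRNAs were called at an adjusted p under 0.05 with limma (0.0%), with 39 at an unadjusted p under 0.05. The interaction passed for 20 miRNAs (5.71%). The nuclear difference was the higher one in 15 and the lower one in 5, and in all 20 the 2 differences had opposite signs. A test for a gap between the 2 differences favours opposite signs, so these signs are not read as an opposed response of the fractions. miR-301a-3p had 86.0 and 54.1 at 2 h against 119.6 and 98.9 at 0 h among cytoplasmic libraries (log2 difference -0.66), and the interaction was 1.84 ± 0.34 (SE), adjusted p = 0.018. miR-382-3p had 192 and 228 at 2 h against 83.1 and 163 at 0 h among cytoplasmic libraries (log2 difference 0.84), and the interaction was -1.94 ± 0.40 (SE), adjusted p = 0.0211. The count of 20 fell to 0 without 2 h nuclear replicate 1, 0 h nuclear replicate 2, 2 h cytoplasmic replicate 2 or 0 h cytoplasmic replicate 1, to 1 without 2 h cytoplasmic replicate 1 and to 0 when scaled to miR-186-5p. It rose to 52 without 2 h nuclear replicate 2, to 38 without 0 h nuclear replicate 1 and to 66 without 0 h cytoplasmic replicate 2.

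Across the 350 miRNAs the nuclear and cytoplasmic differences had a Spearman's rho of -0.44 and a Pearson's r of -0.42. This is a description over miRNAs, which are not replicates, and all points share the same 8 libraries and a single set of size factors for both fractions. Leaving out each of the 8 libraries gave rho between -0.52 and -0.14, the weakest without 0 h cytoplasmic replicate 1.

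**Figure D4:**
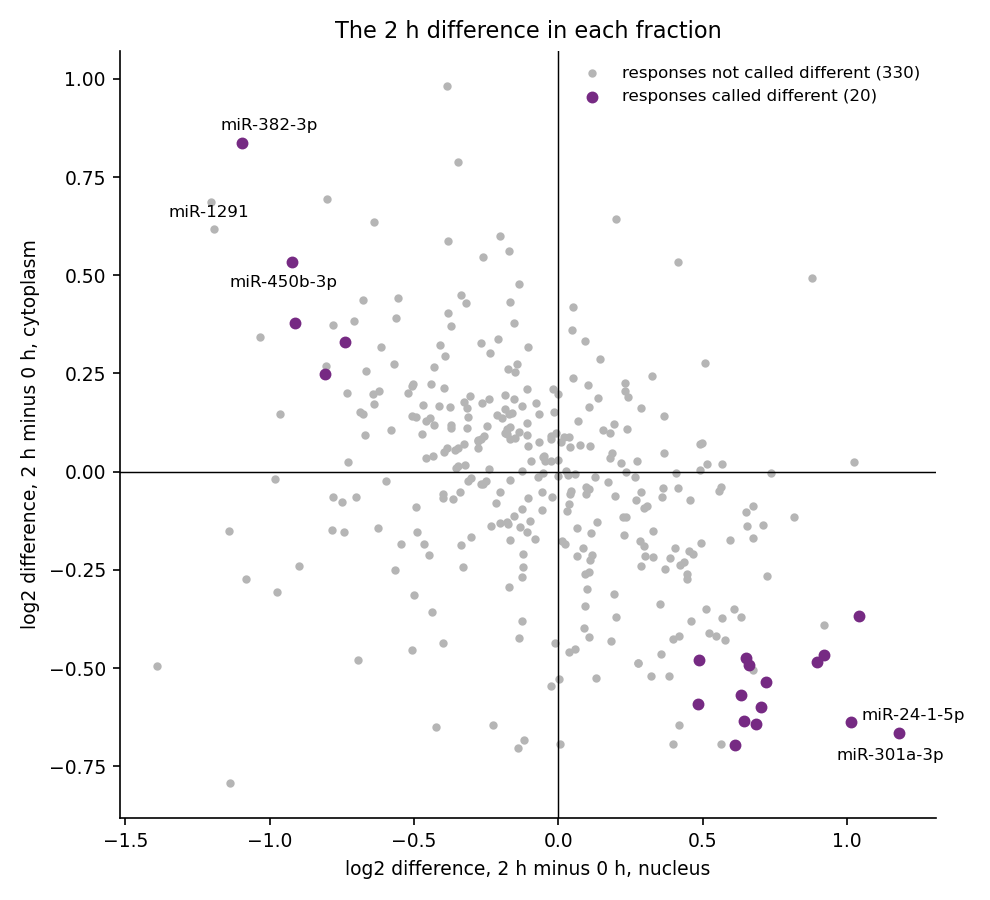
Each point is 1 of 350 miRNAs with its log2 difference, 2 h minus 0 h, in the nucleus on the horizontal axis and in the cytoplasm on the vertical axis. The 20 miRNAs whose interaction was called lie in the upper left (5) and lower right (15) of the plot, the corners that a test for a gap favours.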

How the data were processed

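Small RNA libraries were made from nuclear and cytoplasmic RNA of C166 cells after 0, 2 and 24 h of hypoxia, with 2 libraries per group. Per the labels, the authors used bcl2fastq for base calls, Trimmomatic for trimming and Bowtie2 2.1.0 for alignment, and DESeq2 gave a size factor by which each library was divided. The signal values deposited are these normalized counts of 350 miRNAs. The deposited table also holds the authors' fold changes and adjusted p-values per comparison, which were not used. All 12 columns of per-sample values were mapped to samples by title.

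limma 3.58.1 (R 4.3.3) was run on log2(normalized count + 1) with a trend of the variance on abundance, 1 mean per time over the 6 nuclear libraries and Benjamini-Hochberg adjustment over all 350 miRNAs. The interaction was fitted over the 12 libraries. A single size factor per library spans both fractions, which assumes that most miRNAs have similar levels in all libraries, and the log2 scale understates differences of low counts. Whole reads were recovered from the size factors for depth and limma-voom. Since the lowest values hold 10 reads, edgeR was not run. Named miRNAs are those with an adjusted p under 0.05, the 10 with the largest difference in each direction without overlap, those the study names, the 6 most abundant, up to 4 per list, and the other arms and seed relatives of the first set. The members and lists were chosen with earlier results of these data known. The test was checked on simulated data with independent libraries and the same dispersion for every miRNA. No library in it deviated as a whole, so the check does not cover the dependence of the calls on single libraries. Sequences and positions are from RefSeq (GRCm38.p6), with 301 of 350 miRNAs matched. Tables and figures used Python 3.11.15, pandas 2.3.3, scipy 1.17.1 and matplotlib 3.10.9. Alternatives were other scalings, pseudocounts of 0.5 and 8, a minimum mean of 100, other sets of libraries, no variance trend, limma-voom, a block on the replicate number and the omission of each library in turn.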

Additional observations from a re-analysis of the deposited data

Results flagged for a closer look

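The 2 h response differed between the fractions, by the interaction term in limma, for 20 miRNAs. All values are the nuclear minus the cytoplasmic log2 difference, 2 h minus 0 h. The most significant was miR-301a-3p at 1.84 (adjusted p = 0.018). The nuclear difference was also the higher one for miR-24-1-5p at 1.65, miR-132-5p at 1.41, miR-331-3p at 1.39, miR-467b-5p at 1.38, miR-32-5p at 1.33, miR-30d-3p at 1.31, let-7f-1-3p at 1.30, miR-425-5p at 1.28, miR-467a-5p at 1.26, miR-218-5p at 1.20, miR-214-5p at 1.15, miR-96-5p at 1.12, miR-24-2-5p at 1.07 and let-7c-2-3p at 0.97. The nuclear difference was the lower one for miR-382-3p at -1.94, miR-450b-3p at -1.46, miR-382-5p at -1.29, miR-182-5p at -1.07 and miR-28a-3p at -1.06. Adjusted p over the 20 ran up to 0.0472.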

How the results depend on the processing

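At the study's threshold the count of 0 became 0 to 17 when each nuclear library was left out. At an adjusted p under 0.05 the 7 higher miRNAs became 0 to 24 and the 18 lower became 0 to 31. The 7 higher became 3 when scaled to the total count or with size factors within the nuclear libraries, 18 with miR-21a-5p left out of that total, 1 at a mean normalized count of at least 100, 2 with no variance trend, and 0 when scaled to miR-186-5p or with only the 0 h and 2 h libraries. The 18 lower became 9 with TMM factors, 3 with size factors within the nuclear libraries, 11 with all 12 libraries in the fit, 1 with no variance trend, and 0 when scaled to miR-186-5p, with only the 0 h and 2 h libraries or at a mean of at least 100. Of the 25 called, 25 kept their call under both other pseudocounts and with limma-voom. With the replicate number as a block, 0 higher and 0 lower were called and the interaction count was 23. Nuclear samples with the same number at 2 h and 0 h had r = 0.0058 between their deviations, cytoplasmic ones r = 0.32, and the 4 pairs across fractions r from -0.03 to 0.48. The labels do not say whether libraries with the same number came from the same culture, and this was not tested. The main fits treat all libraries as independent. The 20 interactions became 13 when scaled to the total count, 0 when scaled to miR-186-5p, and 0 to 66 when each library was left out. The cause of these shifts was not tested, beyond the fewer libraries or miRNAs in the fit where these were removed. Among the other named miRNAs 37 values changed sign under some alternative without a call on either side. With 2 libraries per group, the median standard error of 0.22 limits what can be called.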
